A study of Mus musculus with 6 samples.

Results

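Integrin subunits that T cells are known to use were followed in peripheral T-cell lymphomas (PTCL) of mice with 1 inactivated allele of Dnmt3b. The 10 members were taken by gene symbol from the deposited gene table and comprise 7 alpha chains (Itga1, Itga2, Itga4, Itga6, Itgae, Itgal and Itgav) and 3 beta chains (Itgb1, Itgb2 and Itgb7). They are 10 of 34245 genes in the table, and all 10 were found there. RNA-seq was available for 3 Dnmt3b+/- PTCL from lymph nodes of terminally sick FVB mice (FVB/N in the methods of the study), here tumors 1, 2 and 3, which carried a germline inactivation and received no treatment named in the labels. The ages of the mice are not given in the sources used here, and no second group with expression values was analysed, so every comparison below is between tumors of 1 genotype and no test between groups could be made. The depths to which the FPKM were scaled were 30726570, 18969988 and 20770928 reads in tumors 1, 2 and 3, as recovered from the deposited values. They need not be all reads of a library.

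Integrins are adhesion receptors of the cell surface, each built from an alpha and a beta chain that leave the endoplasmic reticulum as a pair. The alpha chain largely sets which ligand is bound, and the beta chain connects the pair to talin, kindlin and the actin cytoskeleton. On T cells they hold the cell to antigen-presenting cells and vessel walls and steer it into lymph node, gut and skin.

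Levels are given as FPKM, fragments scaled to the length of the merged exons and to library depth. Comparisons between genes, including ratios and shares of chains, rest on the exon length taken for each gene. All 9 T-cell markers (Cd3d, Cd3e, Cd3g, Cd247, Cd5, Lck, Cd8a, Cd8b1 and Cd4) exceeded 1 FPKM in every tumor, with Cd3e, a chain of the T-cell receptor complex, at 56.4, 78.1 and 65.3 FPKM in tumors 1, 2 and 3. Dnmt3b itself had 0.975, 1.55 and 1.25 FPKM, a value over all exons that includes those outside the inactivated part and so does not check the genotype.

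LFA-1, the pair of Itgal and Itgb2, was the integrin whose chains were high in all 3 tumors. Itgal, the alpha chain that binds ICAM ligands, had 65.5, 123.6 and 85.4 FPKM in tumors 1, 2 and 3. Tumor 2 was highest for Itgal and tumor 1 lowest, although tumors 1 and 3 changed places when the levels were scaled to Cd3d, Cd3e and Cd3g (the Cd3 genes). Itgb2, the leukocyte beta chain, had 118.1, 145.3 and 121.4 FPKM and averaged 128.3 ± 14.9 (SD, n = 3). Its highest tumor was 1.23 times its lowest, the smallest such ratio among the 10 members, and 12.9% of genes with a mean of at least 1 FPKM had a smaller one. The order of the tumors for Itgb2 depended on the scaling, with tumor 1 rather than tumor 2 on top when levels were scaled to the Cd3 genes.

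Itgb7, the beta chain shared by the gut-homing receptor alpha4 beta7 and the epithelium-binding receptor alphaE beta7, had 194.9, 80.3 and 77.0 FPKM in tumors 1, 2 and 3. Tumor 1 stood at 2.43 times tumor 2 (95% interval 2.35 to 2.51) and 2.53 times tumor 3 (2.45 to 2.62), whereas tumors 2 and 3 could not be separated, with a ratio of tumor 3 to tumor 2 of 0.959 (0.919 to 1.00). These intervals, exact binomial ones on recovered reads, cover counting error only. They were computed for the deposited FPKM and not for other scalings, which multiply a ratio and its interval by the same factor. Itgae, the alpha chain that pairs with Itgb7 alone and binds E-cadherin on epithelium, had 12.3, 4.28 and 2.26 FPKM. Tumor 1 was highest, as for Itgb7, and all 3 tumors differed from each other beyond counting error. Itgae averaged 6.29 ± 5.33 FPKM (SD, n = 3) and Itgb7 117.4 ± 67.1, and without tumor 1 these means were 3.27 and 78.7 FPKM.

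Itga4, the alpha chain that joins Itgb1 in VLA-4 and Itgb7 in alpha4 beta7, had 15.2, 1.26 and 3.24 FPKM in tumors 1, 2 and 3, with 6537, 335 and 942 reads behind them. Tumor 1 was highest by far, at 12.0 times tumor 2 (95% interval 10.8 to 13.5), the largest ratio of highest to lowest tumor among the 10 members. Itgb1, the beta chain of the VLA receptors for collagen, laminin and fibronectin, had 10.9, 88.7 and 48.1 FPKM, from 1373, 6870 and 4078 reads. Here tumor 1 was lowest, and tumor 2 stood at 8.10 times tumor 1 (7.65 to 8.59) and tumor 3 at 4.39 times (4.13 to 4.67). Itga4 and Itgb1 thus had opposite orders of the 3 tumors, under each of the 3 other scalings as well. Itga4 shares 1124 exon bases with Cerkl on the opposite strand, and since the counting is not stated to use strand, their reads there cannot be told apart; Cerkl had 1.46, 0.0599 and 0.802 FPKM.

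Promoter sequence was looked up for these genes because Itgb7 and Itga4 were highest in tumor 1, where Itgb1 was lowest. RefSeq promoter windows (GRCm38.p6) were matched for 6 of the 10 members, namely Itga1, Itga2, Itga4, Itgav, Itgb1 and Itgb7, and not for Itga6, Itgae, Itgal and Itgb2. The 250 bases before the start of each of the 3 genes are given from 5′ to 3′ on the strand of the gene, with each CG dinucleotide, the site at which mammalian DNA is methylated, in capitals. The windows are chr8:128685404-128685653 on the plus strand for Itgb1, chr2:79255176-79255425 on the plus strand for Itga4 and chr15:102231936-102232185 on the minus strand for Itgb7, all upstream of the first exon.
Itgb1: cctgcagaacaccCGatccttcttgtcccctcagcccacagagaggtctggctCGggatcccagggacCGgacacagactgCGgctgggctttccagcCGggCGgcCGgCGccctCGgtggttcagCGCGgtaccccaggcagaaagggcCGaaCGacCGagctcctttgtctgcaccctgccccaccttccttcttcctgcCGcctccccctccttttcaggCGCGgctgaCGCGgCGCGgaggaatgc
Itga4: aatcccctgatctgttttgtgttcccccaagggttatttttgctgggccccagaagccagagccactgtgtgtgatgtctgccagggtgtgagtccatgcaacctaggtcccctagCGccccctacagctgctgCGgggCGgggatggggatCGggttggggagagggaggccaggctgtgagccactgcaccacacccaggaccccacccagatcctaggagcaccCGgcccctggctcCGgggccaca
Itgb7: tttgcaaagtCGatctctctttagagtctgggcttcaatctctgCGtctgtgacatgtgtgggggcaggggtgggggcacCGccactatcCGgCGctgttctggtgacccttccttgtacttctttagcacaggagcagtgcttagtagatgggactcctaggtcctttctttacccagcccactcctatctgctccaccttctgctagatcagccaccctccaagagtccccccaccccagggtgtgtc

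The Itgb1 window held 21 CG dinucleotides, a number reached by 16.3% of 32851 promoter windows, and was 68.0% G and C. Itga4 and Itgb7 held 6 and 5, and 50.4% and 55.6% of all windows held at least as many. Their windows were 64% and 56% G and C. Of the other members with a window, Itgav held 18, Itga2 held 12 and Itga1 held 10 CG dinucleotides, at 64.4%, 60.8% and 57.6% G and C. Itgav and Itga2, with more CG than Itga4 and Itgb7, were also highest in tumor 1, and Itga1 was highest in tumor 2, as Itgb1 was. The letters GGGCGG, which overlap CG and were searched on both strands, occurred once each in the windows of Itgb1 and Itga4 and in 32.7% of all windows, and TGTGGT, also searched on both strands, occurred once in that of Itga4 and in 14.0% of all windows. Methylation was not analysed here, and these matches describe the sequence only.

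Itga6, a laminin-binding alpha chain that pairs with Itgb1 or Itgb4, had 18.8, 4.34 and 6.27 FPKM in tumors 1, 2 and 3. Its order of the tumors was that of Itga4, with a narrower ratio of 4.32 between tumors 1 and 2, and all 3 tumors differed from each other beyond counting error. Itgav, the RGD-binding alpha chain that can pair with several beta chains, had 3.24, 1.44 and 1.57 FPKM. Tumor 1 was again highest, and tumors 2 and 3 could not be separated at this depth. Itgav shares 634 exon bases with Gm13684 on the opposite strand, which stayed at or below 0.0425 FPKM.

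The collagen-binding alpha chains were the lowest members. Itga2, with 418, 105 and 30 reads, stood at 1.91, 0.776 and 0.202 FPKM in tumors 1, 2 and 3, so that tumor 1 was highest and tumor 3 lowest. Itga1 had 0.131, 0.213 and 0.0207 FPKM, from 75, 75 and 8 reads, and tumor 3 was lowest, with a Poisson interval of 0.00894 to 0.0408 FPKM around its 8 reads. The 2 genes are neighbors on chromosome 13, on the minus strand and 20995 bases apart, and both were lowest in tumor 3, but Itga2 was highest in tumor 1 and Itga1 in tumor 2. Itga1 shares 685 exon bases with Gm49395 on the same strand (1.53, 2.11 and 1.20 FPKM), which makes its low values uncertain.

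**Figure D1:**
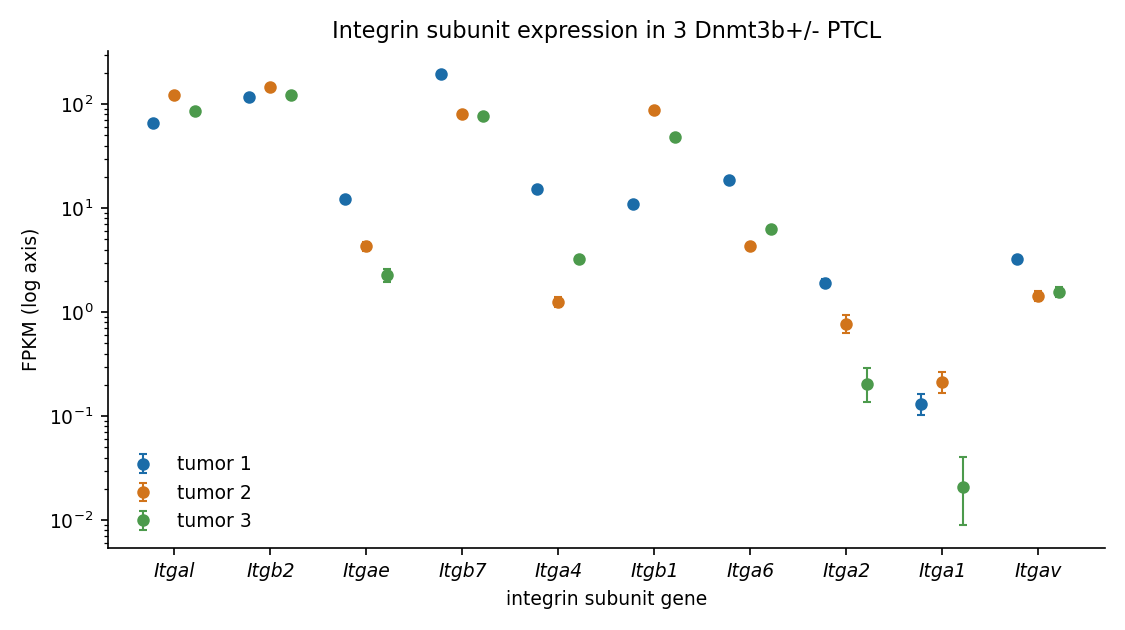
FPKM of the 10 integrin subunit genes in tumors 1, 2 and 3 on a log axis, with 1 point per tumor and bars for the exact 95% Poisson interval of the recovered reads (counting error only). Itgb1 was lowest in tumor 1 (10.9 FPKM), where Itga4, Itga6, Itgae and Itgb7 were highest, while Itgb2 kept to 118.1 to 145.3 FPKM.

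By mean FPKM the order was Itgb2, Itgb7, Itgal, Itgb1, Itga6, Itga4, Itgae, Itgav, Itga2 and Itga1. The ranges over the 3 tumors overlapped for all 9 pairs of neighbors in this order. Within tumors, 5 of the pairs kept 1 order in 3 of 3 tumors, with a mean log2 difference larger than its SD. These differences were 1.30 ± 1.13 for Itgal over Itgb1, 1.01 ± 0.74 for Itga6 over Itga4, 1.34 ± 0.73 for Itgae over Itgav, 1.54 ± 1.23 for Itgav over Itga2 and 3.01 ± 1.03 for Itga2 over Itga1. The other 4 pairs changed places between tumors, and their mean difference was smaller than its SD.

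To place this variation among other genes, the highest tumor was divided by the lowest for every gene, with no tumor taken below the FPKM of 3 reads. A ratio of at least 2 was found for 6 of the 8 members with a mean of at least 1 FPKM, and for 34.4% of the 11191 genes above that mean. These 8 members also exceeded 1 FPKM in every tumor; Itga1 and Itga2 did not reach that mean, and counting them too, 8 of 10 had a ratio of at least 2. Among the 6, tumor 1 was highest for 5 (Itga4, Itga6, Itgae, Itgav and Itgb7; 18.1% of all genes), tumor 2 for 1 (Itgb1; 12.3%) and tumor 3 for 0 (3.97%). The median ratio was 4.89 over the 10 members, 3.43 over the 8 and 1.68 over the 11191 genes. Much of this rested on tumor 1: without it, 1 of the 8 members (Itga4) and 16.2% of the genes had a ratio of at least 2, and 3 of all 10 members (Itga1, Itga2 and Itga4). Of the 24 ratios of the 8 members between pairs of tumors, 21 had a 95% counting interval that left out 1, beside 75.3% of the ratios of 9990 genes above that mean whose reads came out whole. With Itga1 and Itga2 it was 27 of 30, and the other 3 were Itgav and Itgb7 between tumors 2 and 3 and Itgb2 between tumors 1 and 3. The median gene stood at 0.885 in tumor 2 and 0.847 in tumor 3 relative to tumor 1, so the ratios of members are read beside those values.

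**Figure D2:**
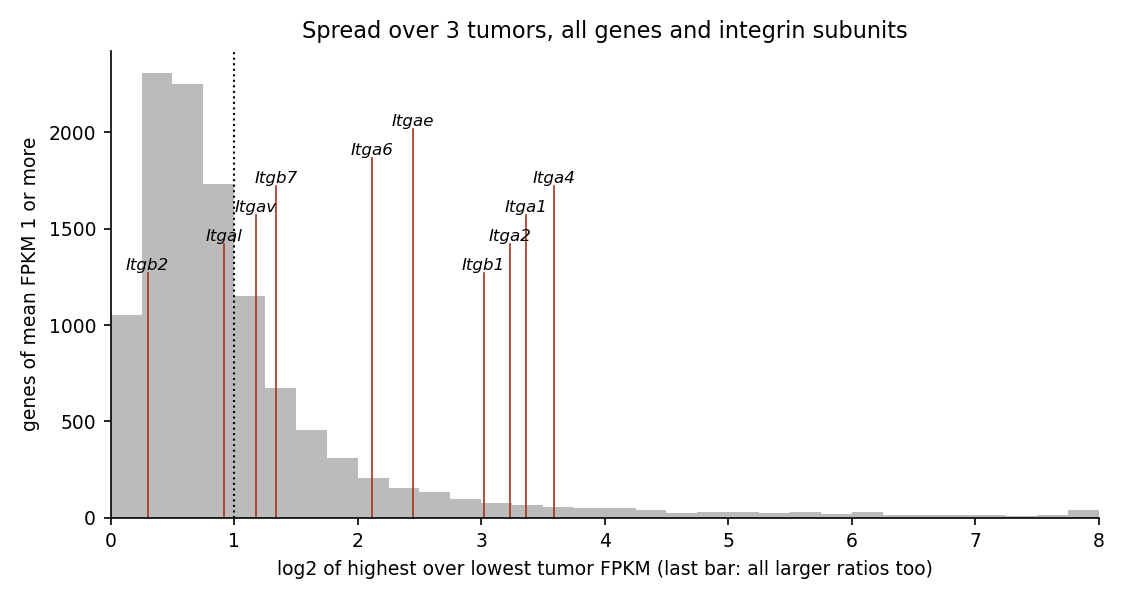
Histogram of the log2 ratio of the highest to the lowest tumor over 11191 genes with a mean of at least 1 FPKM, with the 10 integrin subunits marked by lines and a dotted line at a ratio of 2. Itgb2 (ratio 1.23) and Itgal (1.89) lie to the left of the dotted line and the other 8 to the right, up to Itga4 (12.0); with median-of-ratios scaling Itgal passed it too.

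Ratios of partner chains within a tumor do not depend on the scaling of the library. For LFA-1 the ratio of Itgal to Itgb2 was 0.555, 0.850 and 0.703 in tumors 1, 2 and 3, a mean log2 ratio of -0.53 ± 0.31 (SD, n = 3). The beta chain thus had the higher FPKM of the pair in 3 of 3 tumors, a comparison that rests on the length of merged exons taken for each gene. Itgae amounted to 0.0633, 0.0533 and 0.0293 of Itgb7, a mean log2 ratio of -4.43 ± 0.58, and Itga4 to 0.0781, 0.0157 and 0.0421, a mean log2 ratio of -4.75 ± 1.17. Even the sum of Itga4 and Itgae reached only 0.141, 0.0690 and 0.0715 of the Itgb7 level, so Itgb7 exceeded its known alpha partners in every tumor.

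Among the beta1 receptors, Itga4 stood at 1.39, 0.0142 and 0.0674 times Itgb1 in tumors 1, 2 and 3. The sum of 5 alpha chains that can join Itgb1 (Itga1, Itga2, Itga4, Itga6 and Itgav) was 3.59, 0.0905 and 0.235 times Itgb1, a mean log2 ratio of -1.24 ± 2.75. That mean was -2.78 without tumor 1, -0.12 without tumor 2 and -0.81 without tumor 3. In tumor 1 the sum exceeded Itgb1, as Itga4 and Itga6 did alone, whereas Itga1, Itga2 and Itgav were at 0.0120, 0.174 and 0.296 times Itgb1 there. In tumors 2 and 3 Itgb1 exceeded the sum by 11.1 and 4.25 times. Itga4 and Itgav also join other beta chains, and protein at the surface was not measured.

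**Figure D3:**
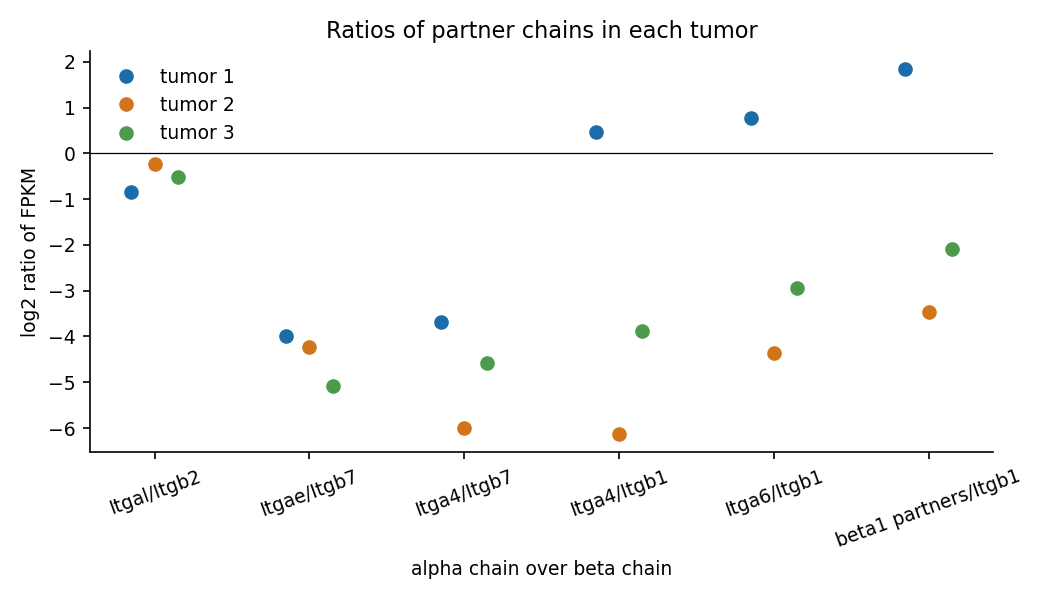
Log2 ratio of alpha to beta chain FPKM in each tumor for 5 pairs and for the sum of 5 alpha chains that can join Itgb1, with 1 point per tumor and a line at equal levels. The 3 ratios to Itgb1 plotted (Itga4, Itga6 and the sum) lie above the line in tumor 1, up to 1.84, and below it in tumors 2 and 3, and ratios to Itgb7 lie below it in all 3.

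Over the whole integrin family, 18 alpha and 9 beta chain genes, the members held on average 95.5% of the alpha and 97.1% of the beta chain FPKM. Itgal alone made up 51.8%, 87.6% and 84.2% of the alpha chain FPKM in tumors 1, 2 and 3, a mean of 74.6% ± 19.8 (SD, n = 3). Itga6 and Itga4 followed in tumor 1 with 14.8% and 12.0%. Among beta chains Itgb2 held 34.7%, 45.3% and 48.3%, a mean of 42.8% ± 7.16. Itgb7 held 57.3%, 25.0% and 30.7%, and Itgb1 3.22%, 27.7% and 19.2%. Tumor 1 was therefore the tumor in which Itgb7 led and Itgb1 was a small share, and in tumors 2 and 3 Itgb2 led.

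**Figure D4:**
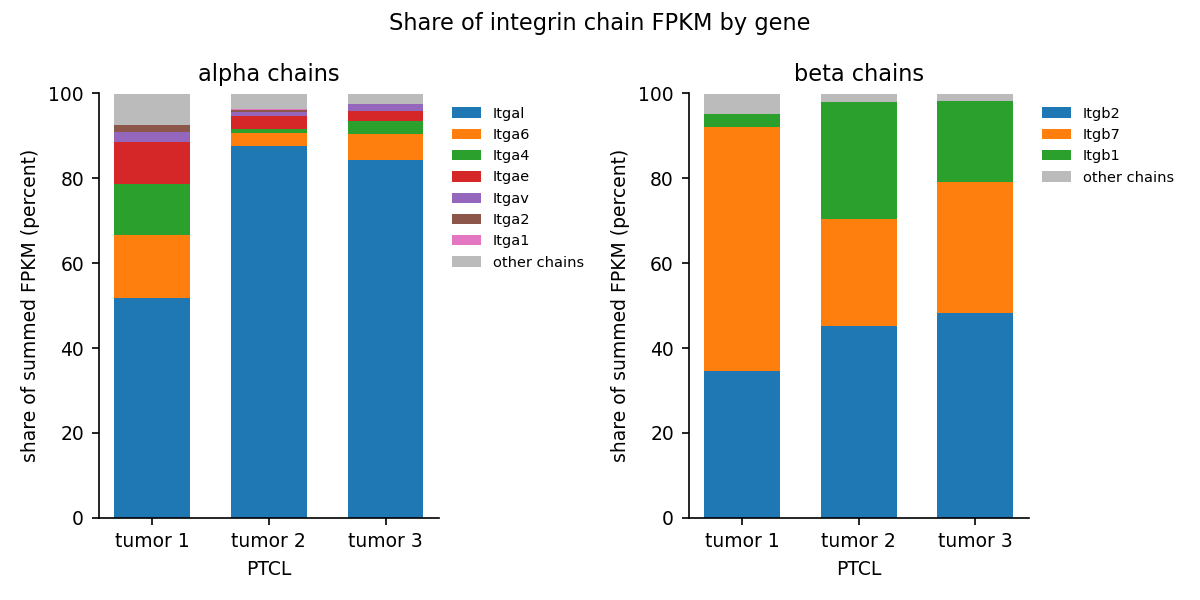
Share of the FPKM summed over 18 alpha chain genes (left) and 9 beta chain genes (right) held by each member in tumors 1, 2 and 3, with all other chains in gray. In tumor 1 Itgal held a share of 51.8% and Itgb1 of 3.22%, and in tumors 2 and 3 these were 87.6% and 84.2% for Itgal and 27.7% and 19.2% for Itgb1.

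Of the 17 other family genes, 4 had a mean of at least 1 FPKM. Itgb3, the beta chain of the vitronectin receptor with Itgav, had 15.2, 0.491 and 4.16 FPKM and was highest in tumor 1, as Itgav was. Itgb4, the beta chain that pairs with Itga6, had 0.0742, 4.97 and 0.0275 FPKM and was seen almost solely in tumor 2, where Itga6 was lowest. The myeloid alpha chains Itgam and Itgax, partners of Itgb2, had 2.58, 0.562 and 0.664 FPKM and 3.18, 1.47 and 0.762 FPKM. Both were highest in tumor 1 and remained far below Itgal. Itgb6 and Itgb2l had no more than 3 reads in any tumor.

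Most genes of the machinery that activates integrins were present. Of 32 genes for activation and adaptors, 29 had a mean of at least 1 FPKM. A ratio of at least 2 between tumors was found for 6 of these (34.4% of all genes), and their median ratio was 1.73, close to the 1.68 of all genes. By mean the most abundant were the actin linker Flna (78.2, 144.9 and 146.1 FPKM), the leukocyte kindlin Fermt3 (77.5, 92.4 and 77.1 FPKM) and the GTPase Rap1b (82.3, 41.6 and 67.8 FPKM). Among the 29, the widest ratios belonged to Cytip, a partner of cytohesin, with 35.9, 7.84 and 20.7 FPKM, and the focal adhesion kinase Ptk2 with 2.65, 0.792 and 2.76 FPKM. Tumor 2 was lowest for both.

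Membrane partners of integrins were present throughout, with all 8 genes above 1 FPKM in every tumor, 2 ratios of at least 2 (34.4% of all genes) and a median ratio of 1.58 beside 1.68 over all genes. The tetraspanins Cd53 (275.3, 171.0 and 250.6 FPKM) and Cd37 (39.8, 47.0 and 50.5 FPKM) and the integrin-associated protein Cd47 (80.7, 55.3 and 47.0 FPKM) were the most abundant by mean. Cd151, a tetraspanin that binds laminin receptors, had 2.78, 6.67 and 3.48 FPKM, and Slc3a2, which binds beta1 chains, had 19.1, 40.8 and 22.3 FPKM. Both had their highest level in tumor 2, the tumor with the most Itgb1.

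Of 19 ligand genes 10 had a mean of at least 1 FPKM. A ratio of at least 2 was found for 7 of these (34.4% of all genes), 5 of them highest in tumor 2 and 2 in tumor 1, and the median ratio was 19.2 beside 1.68 over all genes. All 7 were lowest in tumor 3, so this median rests on the low values of that tumor. It was not recomputed with a tumor left out. The LFA-1 ligands Icam1 (17.8, 25.2 and 18.5 FPKM) and Icam2 (14.6, 12.2 and 19.3 FPKM) and the latent ligand of Itgav receptors Tgfb1 (13.2, 19.3 and 11.6 FPKM) were the most abundant by mean, each with a ratio below 2 between tumors. The 2 collagen genes were highest in tumor 2, with Col4a1 at 2.03, 13.2 and 0.0645 FPKM and Col1a1 at 1.63, 15.5 and 0.315 FPKM. Of ligands chosen after their values were seen, Cdh1, bound by the pair of Itgae and Itgb7, had 13.7, 0.934 and 0.410 FPKM, and Vcam1, bound by VLA-4, had 8.09, 2.38 and 0.174 FPKM. For both, tumor 1 was highest and tumor 3 lowest. Madcam1, bound by alpha4 beta7, had 1.04, 2.50 and 0.168 FPKM, and Fn1, also bound by VLA-4, had 1.81, 4.64 and 0.198 FPKM. These 2, chosen in the same way, were highest in tumor 2.

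Among 12 homing and residency genes, 11 had a mean of at least 1 FPKM and 8 of these a ratio of at least 2 (34.4% of all genes), with a median ratio of 3.43 beside 1.68 over all genes. Tumor 2 was the highest or the lowest for all 8, so the count and the median depend on that tumor. Neither was recomputed without it. Cxcr3, the receptor that draws effector T cells to inflamed tissue, had 28.4, 194.6 and 174.4 FPKM, low in tumor 1 as Itgb1 was. Ccr7, a chemokine receptor of T cells in lymph nodes, had 71.2, 33.2 and 53.8 FPKM, and S1pr1, which lets T cells leave lymph nodes, had 62.2, 5.83 and 42.1 FPKM. Both were lowest in tumor 2. Zfp683, a factor of tissue-resident T cells, had 0.332, 4.37 and 0.229 FPKM and was high only in tumor 2, where Itgae was not at its highest. Selplg, the ligand of selectins, was even at 117.6, 145.1 and 116.2 FPKM.

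Markers of other cells differed between these bulk tumors, in which fewer cells of a type and less RNA per cell cannot be told apart. The gene named as leading a list is the one with the highest mean over the 3 tumors. Macrophage markers, 5 of 5 with a mean of at least 1 FPKM, summed to 184.6, 100.6 and 15.2 FPKM, led by C1qa with 74.5, 24.1 and 1.44. Their median was 20.7, 20.6 and 1.59 FPKM, and Cd68 was highest in tumor 2, with 19.6, 51.2 and 9.27 FPKM. The order of their sum was that of Itgae, Itga2 and Itgb7 (for Itgb7 tumors 2 and 3 could not be separated), and macrophages are known to express several integrin chains, so their part in the levels of these members was not tested. Neutrophil markers summed to 35.9, 1.34 and 14.8 FPKM, led by S100a9, with Elane at 0 reads in all 3 tumors and Ly6g at 1, 0 and 0; their order was that of Itga4, Itga6, Itgav (tumors 2 and 3 not separated) and Itgb3, and their part was not tested.

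Fibroblast markers, 1 of 4 with such a mean, summed to 6.95, 6.03 and 0.0391 FPKM, led by Dcn, and all 4 had at most 1 read in tumor 3. Pdgfra and Lum had 0 reads there, and unread genes enter the sums with the FPKM of 0.9 read. The order of the sum was that of Itgae, Itga2 and Itgb7, and Pdgfra and Pdgfrb (the latter 0.380, 1.59 and 0.00879 FPKM) had that of Itga1. The collagen genes Col4a1 and Col1a1 had the order of Pdgfra and Pdgfrb too. The part of fibroblasts in the levels of those 4 members and of the collagen genes was not tested. Itgb1 had 48.1 FPKM in tumor 3 and 10.9 in tumor 1. Endothelial markers, 1 of 4, summed to 13.6, 12.8 and 5.13 FPKM, led by Pecam1. Their sum had the order of Itgae, Itga2 and Itgb7 and Cdh5 (0.805, 1.39 and 0.126 FPKM) that of Itga1, and their part was not tested. Pancreatic acinar markers, 4 of 4, summed to 62.4, 318.9 and 0.339 FPKM, led by Ctrb1, with Cpa1 and Ctrb1 at 0 reads in tumor 3. Tumor 2 was highest for these, as for Itgal, Itgb1, Itgb2 (not when scaled to the Cd3 genes), Itgb4 and the collagens. The whole order was that of Itga1, and the part of acinar cells in the levels of all these genes was not tested. Epithelial markers, 0 of 3, summed to 0.547, 1.82 and 0.503 FPKM, led by Epcam and with the order of Itga1, their part not tested, and Cdh1 had 13.7 FPKM in tumor 1, where the epithelial sum was 0.547.

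B-cell markers, 5 of 5, summed to 56.2, 13.7 and 103.6 FPKM and were led by Cd79a. Dendritic cell markers, 3 of 4, summed to 6.61, 4.58 and 2.62 FPKM, led by Xcr1 by mean, although Siglech was highest in tumor 1 (2.52 FPKM) and Clec9a in tumor 2 (2.29 FPKM). Their sum had the order of Itgae, Itga2 and Itgb7, and their part was not tested. Natural killer cell markers, 1 of 2, summed to 0.688, 5.97 and 3.51 FPKM, led by Klrb1c with 0.308, 5.77 and 3.38 FPKM. Klrb1c had the order of Itgb1, Itgal and Itgb2 (for Itgb2 tumors 1 and 3 could not be separated). The orders of Itgal and Itgb2 depended on the scaling, and the part of natural killer cells was not tested. The other marker, Ncr1, had 0.380, 0.205 and 0.125 FPKM and was highest in tumor 1. Platelet and megakaryocyte markers, 0 of 4, summed to 1.16, 3.04 and 0.876 FPKM, led by Gp1ba, with Ppbp and Gp9 at 0 reads in all 3 tumors. Their sum had the order of Itga1, and their part was not tested. Itgb3, a chain of platelets, had 15.2 FPKM in tumor 1. T-cell markers summed to 1187, 892.9 and 1282 FPKM, led by Cd8b1 by mean and by Lck in tumor 2, and their median was 78.8, 105.7 and 91.8 FPKM. The sum was lowest in tumor 2, as Cd8a and Cd8b1 were, and the median was highest there, as Cd3e, Cd3g, Cd5 and Lck were. Cd4, the marker with the widest ratio of this list (6.63), had 28.4, 4.28 and 8.22 FPKM, the order of Itga4, Itga6 and Itgav (tumors 2 and 3 not separated for Itgav). The part of cells with Cd4 in those levels was not tested.

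**Figure D5:**
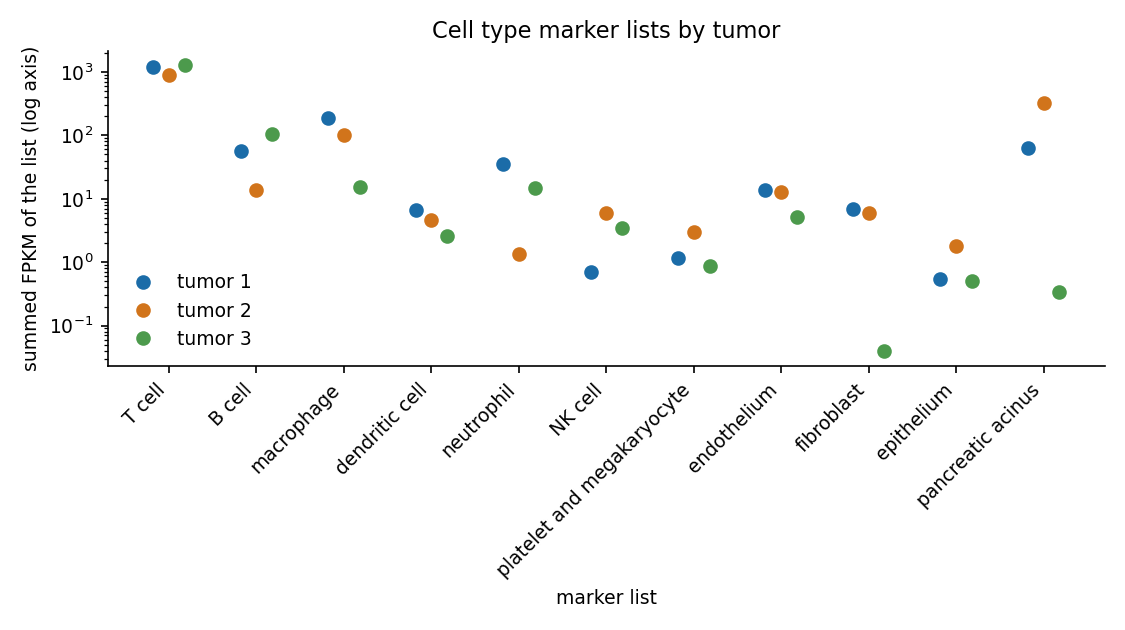
FPKM summed over each of 11 cell type marker lists in tumors 1, 2 and 3 on a log axis, with 1 point per tumor. T-cell markers were the highest list in every tumor (892.9 to 1282 FPKM), and fibroblast markers stood at 0.0391 FPKM in tumor 3. Each of the latter had at most 1 read there, and unread genes enter at 0.9 read.

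The genes most like each variable member over the 3 tumors were found by the distance between centered log2 FPKM among 11190 other genes. Closest to Itgb1 were Ifit3b (2.10, 16.6 and 9.87 FPKM) and Cuedc1 (0.603, 4.90 and 2.96 FPKM), and 7 genes lay within a distance of 0.25. Closest to Itga4 were Il10 (2.43, 0.201 and 0.441 FPKM) and Slc35g1 (29.8, 2.25 and 5.23 FPKM), with 6 genes within that distance. For Itgae the closest were Gng12 and Hebp1 (20 genes within 0.25), for Itga6 Dnaaf3 and Gsr (38 genes), for Itgb7 Zbed6 and Dis3 (188 genes) and for Itgav Nin and Far2 (397 genes). A fixed distance holds fewer genes the steeper a pattern is, so these numbers are not compared between members, and with 3 tumors such likeness is a description.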

How the data were processed

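RNA-seq of 3 Dnmt3b+/- PTCL was used; whole-genome bisulfite sequencing of 3 samples was not analysed here. Per the study's methods, the authors trimmed reads, aligned them to mm10 with STAR, counted reads of mapping quality of at least 50 with SeqMonk and deposited the values as FPKM, 1 column per tumor. Versions of STAR and SeqMonk are not given in the sources used here. The labels and the study's methods name different sequencing instruments. The members and lists were chosen with earlier results of these data known.

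Dates stood in place of 26 symbols, which were looked up again by identifier, and of repeated symbols the gene with the highest mean was kept (34199 symbols). The depth of each library follows from unread genes, whose FPKM equals 0.9 read. Reads were recovered from the exons of GENCODE M21 within the deposited gene bounds, and 94.6%, 94.6% and 94.7% of 34110 genes came out whole within 0.02 read. For Itgb7, 2743 exon bases were used, the only 1 of 554 lengths tried within 10% of 2761 at which all 3 tumors gave whole reads. Depth limits the low members: 3 reads on Itga1 amount to 0.00525, 0.00850 and 0.00777 FPKM in tumors 1, 2 and 3.

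Named genes were all members, other chains with a mean of at least 1 FPKM, the 3 most abundant and the 2 most variable genes of each list, and the 2 nearest patterns of each member with such a mean and a ratio of at least 2. Marker lists covered T, B, dendritic and natural killer cells, macrophages, neutrophils, platelets, endothelium, fibroblasts, epithelium and pancreatic acinus. Some genes of the lists are not reported here. Alternatives were other scalings (TPM scale, median-of-ratios factors, Cd3d, Cd3e and Cd3g), summed repeats, other thresholds, pseudocounts, filters and partner chains, and each tumor left out. The steps were tested on simulated data. Tables were handled in Python 3.11 with pandas 2.3.3 and NumPy 2.4.6, intervals came from SciPy 1.17.1, and plots were drawn with matplotlib 3.10.9.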

Additional observations from a re-analysis of the deposited data

How the results depend on the processing

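With a threshold of 10 FPKM, 4 members in place of 8 passed it in every tumor. The number of members with a ratio of at least 2 lay between 3 and 8 with 1 tumor left out, against 8 with all 3, and was lowest without tumor 1. For the 8 members with a mean of at least 1 FPKM it was 1, 6 and 6 without tumors 1, 2 and 3, against 6 with all 3. The share of all genes was 16.2%, 17.6% and 25.2% in the same settings, against 34.4% with all 3. The median ratio of the members, 4.89, lay between 1.65 and 3.69 with 1 tumor left out, and was 5.93 scaled to the Cd3 genes, 2.46 from FPKM + 1, 3.42 from FPKM + 0.1 and 3.43 without members under a mean of 1 FPKM. Over all genes the median ratio, 1.68, lay between 1.32 and 1.49 with 1 tumor left out and was 1.94 scaled to the Cd3 genes. With 1 tumor left out, the mean log2 ratio lay between -0.68 and -0.37 for Itgal to Itgb2, -4.66 and -4.11 for Itgae to Itgb7, -5.28 and -4.12 for Itga4 to Itgb7, and -2.78 (without tumor 1) and -0.12 (without tumor 2) for the beta1 partners. The mean share lay between 40.0% and 46.8% for Itgb2 and between 68.0% and 85.9% for Itgal. A mean of 3 values cannot move by 1 SD when 1 is left out, so these ranges are no sign of stability. With a pseudocount of 1 or other chains summed, the ratios and shares moved by less than 1 SD and kept their sign.

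Relative to the deposited FPKM, scaling to the Cd3 genes moved the median log2 ratio of all genes between tumors 2 and 1 by -0.39, the TPM scale by -0.13 and median-of-ratios factors by 0.16. The order of the 3 tumors was the same for 10 of 10 members with median-of-ratios factors, for 9 on the TPM scale (not Itgb2) and for 8 scaled to the Cd3 genes (not Itgal and Itgb2). No paired analysis was made because a single group with expression values was analysed here. With 1 library per tumor, differences between tumors have no replicate check, and intervals cover counting error only. The intervals were computed for the deposited FPKM only. Which tumors could not be separated, and the number of intervals that left out 1, can therefore change with the scaling.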
